A study of Homo sapiens with 12 samples.

Results

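The MER57 group holds the copies in the human genome of a primate endogenous retrovirus of the ERV1 family. An element was a member when its RepeatMasker subfamily name began with MER57 and its reads lay on the strand of the element itself. By this rule 2739 MER57 elements had counts in at least 1 of 12 libraries, of 1509971 elements with sense-strand counts in 6 repeat classes (LTR, LINE, SINE, DNA, RC and Retroposon). The group was chosen by measured values. Subfamily MER57A-int was already known from these libraries to lie low in Z18fl and Z18trunc relative to Clover. Values of those constructs against Clover are therefore a description of what led to the choice. Where elements called in these contrasts are counted below, the share of all features called stands beside the count and nothing is read from it.

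The libraries came from A375, an established human melanoma cell line, transiently transfected with pcDNA3.2 plasmids that carried a V5 tag. The plasmids encoded Clover, a green fluorescent protein used as the control, full-length ZC3H18 (Z18fl), truncated ZC3H18 (Z18trunc), or the truncated protein with aromatic residues of its zinc finger mutated (Z18truncZnFmut). Labelling of all cells with 4-thiouridine began 24 hours after transfection. After the labelling period cells were crosslinked with ultraviolet light and subjected to anti-V5 immunoprecipitation. The recovered RNA was depleted of ribosomal RNA and sequenced with strand information (PAR-CLIP). Each construct had 3 libraries, and the constructs were added to cells that kept their own ZC3H18 gene. Nothing in the labels says whether the 3 libraries of a construct came from separate cultures, so p-values measure the spread between these libraries only. A change in the amount of an RNA in the cells and a change in its recovery cannot be told apart in immunoprecipitated bulk RNA, nor can fewer cells with an RNA and less RNA per cell.

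Aligned fragments ranged from 16683132 to 25686948 per library. Replicate 3 of Z18truncZnFmut stood apart, with 1414822 elements listed where no other library had more than 697167, and with counts at 1880 MER57 loci where the rest had 183 to 577. Most fold changes and means of Z18truncZnFmut are given with this library and, beside them, without it or by library.

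An endogenous retrovirus consists of an internal sequence, which once encoded the viral proteins, between a pair of long terminal repeats (LTRs), which carry the promoter and the polyadenylation signal. RepeatMasker names the internal sequence with the suffix -int and the LTR types with letters. Most copies have since been broken up, by recombination between the LTRs or by later insertions of other elements. ZC3H18 is a nuclear zinc-finger protein that links the cap of new transcripts to the RNA exosome, the complex that degrades unstable nuclear RNA.

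The 3 members shown were among the 10 MER57 loci of highest mean CPM, and stand for the contig stretch and for an LTR outside it. The letters are hg38, 5′ to 3′ on the strand of the element, and capitals mark every run of 8 or more bases that are all A or T, in any order. Such a run is also a run of A and T on the other strand. MER57A1 is the 5′ part of an LTR on an unplaced contig (chrUn_KI270751v1:55352-55651, plus strand), which has an identical copy on a second contig. MER57-int is a 91-base internal piece from the same contig (chrUn_KI270751v1:58467-58557, plus strand), which directly precedes a LINE-1 element. MER57D is an LTR between genes on chromosome 4 (chr4:188170584-188170883, plus strand).
MER57A1: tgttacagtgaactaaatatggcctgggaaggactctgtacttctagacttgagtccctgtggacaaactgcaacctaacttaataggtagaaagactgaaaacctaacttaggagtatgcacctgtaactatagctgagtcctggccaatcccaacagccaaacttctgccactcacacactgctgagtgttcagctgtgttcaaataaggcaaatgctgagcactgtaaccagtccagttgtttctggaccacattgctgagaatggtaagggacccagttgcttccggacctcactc
MER57-int: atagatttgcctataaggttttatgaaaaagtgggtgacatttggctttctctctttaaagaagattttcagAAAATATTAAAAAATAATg
MER57D: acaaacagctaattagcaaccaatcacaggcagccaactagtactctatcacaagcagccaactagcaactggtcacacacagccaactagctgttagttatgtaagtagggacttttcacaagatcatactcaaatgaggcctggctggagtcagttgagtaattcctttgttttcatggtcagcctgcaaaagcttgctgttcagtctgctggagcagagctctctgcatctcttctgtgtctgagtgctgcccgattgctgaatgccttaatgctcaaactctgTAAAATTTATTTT
The printed MER57A1 bases hold no such run, and MER57-int and MER57D hold 1 each. Of the 2187 MER57 elements of 300 bases or more, 85.6% have such a run in their first 300 bases. Of the 2692 elements of 91 bases or more, 57.7% have one in their first 91 bases.

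MER57 RNA took only a small part of the element counts, and a few loci held most of it. MER57 elements made up 0.302% ± 0.00413 (SD, n = 3) of sense element counts for Clover, 0.195% ± 0.00694 for Z18fl, 0.202% ± 0.0120 for Z18trunc and 0.223% ± 0.0190 for Z18truncZnFmut (0.216% without replicate 3). In counts per 1000000 aligned fragments (CPM), MER57 stood at 119 ± 7.86 for Clover, 101 ± 2.86 for Z18fl, 115 ± 8.75 for Z18trunc and 147 ± 59.6 for Z18truncZnFmut. The wide spread of the last group came from its replicate 3, at 215 CPM against 122 and 104. Of 32040 MER57 counts over the 12 libraries, 1 locus held 31.4%, the top 3 held 53.5% and the top 10 held 65.9%. At the other end, 1895 loci (69.2%) had counts in 1 library only, for 1299 of them Z18truncZnFmut replicate 3. Only 24 loci had counts in all 12 libraries.

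The counts fell into 3 sources. One was a single MER57A-int element in the gene PYGB on chromosome 20. Another was a stretch present on 2 unplaced contigs, with 22 MER57 elements and 38.3% of the counts. The last was made up of the 2716 other loci, with 30.3% of the counts. The PYGB element gave 45.0% ± 4.88 of MER57 counts for Clover, for Z18fl 27.6% ± 2.06, for Z18trunc 33.1% ± 1.53 and for Z18truncZnFmut 28.7% ± 12.9, where replicate 3 stood at 14.0% and the other libraries averaged 36.1%. Counted from uniquely mapping reads alone, the share of the PYGB element was 76.7% ± 4.24 in Clover and 55.3% ± 2.92 in Z18fl. The contig stretch had 34 unique counts over all libraries.

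**Figure D1:**
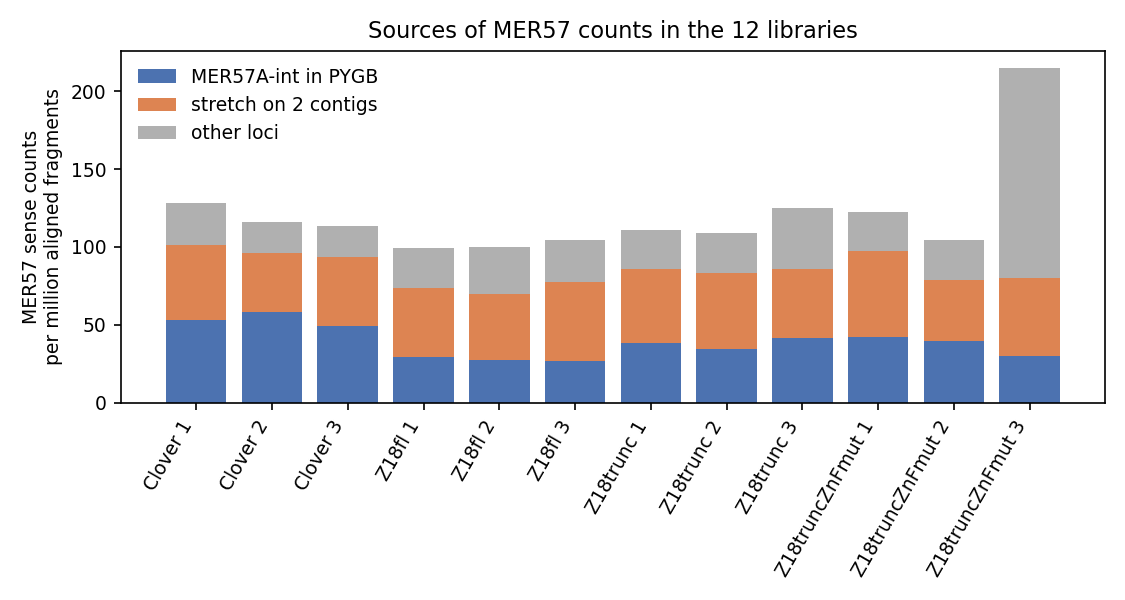
Stacked bars give sense-strand MER57 CPM in each of the 12 libraries, divided into the MER57A-int element in PYGB, the stretch on 2 contigs and the other loci. The PYGB part is tallest in the 3 Clover libraries, and Z18truncZnFmut replicate 3 differs by its other loci, at 135 CPM against 19.8 to 39.0 in the other libraries.

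The MER57A-int element with the most counts lay in the 3′ untranslated region of PYGB, the brain form of glycogen phosphorylase (chr20:25296857-25297216, 360 bases, plus strand, the strand of the gene). It began 337 bases after the last coding base and ended 796 bases before the end of the gene. It had 881, 1001 and 871 counts for Clover, 683, 633 and 687 for Z18fl, 911, 827 and 984 for Z18trunc, and 1014, 839 and 728 for Z18truncZnFmut. In CPM these were 52.8, 58.5 and 49.3 for Clover, 29.5, 27.6 and 26.7 for Z18fl, 38.3, 34.2 and 41.6 for Z18trunc, and 42.0, 39.4 and 30.1 for Z18truncZnFmut. All 9 libraries of the Z18 constructs lay under the lowest Clover library, and the 3 Z18fl libraries lay under every library of the truncated constructs. The element holds most counts of the subfamily on which the group was chosen, so nothing is read from these orders. Unique reads made up 88.7% of its counts, and no second copy of it was found in hg38 at 90% identity or more.

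Relative to the typical element, the log2 fold change of the PYGB element against Clover was -1.30 ± 0.12 (SE) in Z18fl and -0.84 ± 0.12 in Z18trunc. In Z18truncZnFmut it was -0.73 ± 0.15, and -0.62 without its replicate 3. That comparison was not used in the choice of the group, but it shares its Clover libraries with those that were, so its edgeR adjusted p of 0.00113 is not independent evidence, and with no filter on low counts that p was 0.462. With aligned fragments as library sizes the values against Clover were -0.94, -0.49 and -0.53. The libraries of Z18fl and Z18trunc both entered the choice of the group, through their values against Clover. A difference between those constructs at this element is therefore not independent of the choice, and its p-values are a description. Between those constructs, Z18trunc lay above Z18fl by 0.37 ± 0.12 (edgeR adjusted p = 0.0790), which missed the threshold of 0.05, although the groups did not overlap in CPM. Over all other settings tried, the adjusted p of that difference ran from 0.0228 with uniquely mapping reads to 0.559 with no filter on low counts. Z18truncZnFmut differed from Z18trunc by 0.13 ± 0.15 (edgeR adjusted p = 0.742), and by 0.23 ± 0.15 (adjusted p = 0.499) without its replicate 3. The CPM of those groups overlapped, and the sign of the difference turned with aligned fragments as library sizes (-0.03) and with no filter on low counts (-0.08).

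The other elements kept on the strand of PYGB, summed, were higher in the Z18 constructs than in Clover, where the MER57A-int element was lower. Elements were kept only above a minimum count, which libraries of any construct could supply. The 8 elements kept in PYGB introns summed to 4.90 CPM ± 0.856 for Clover, 19.3 ± 1.48 for Z18fl, 20.1 ± 1.27 for Z18trunc and 16.6 ± 0.587 for Z18truncZnFmut (16.7 without replicate 3). The highest Clover library had 5.67 CPM and the lowest library of any Z18 construct 16.1. MLT2D, L1MB5, L1ME2z and FLAM_C met the minimum through Z18 libraries alone, so nothing is read from the sum. L1P2 and the Alu elements met it in Clover as well. Most of the summed counts lay on L1P2, a LINE-1 fragment of 4734 bases that starts 12421 bases into the gene. Its log2 fold change against Clover was 1.71 ± 0.16 for Z18fl, 1.97 ± 0.15 for Z18trunc and 1.77 ± 0.18 for Z18truncZnFmut, or 1.74 without its replicate 3. AluJo, a SINE in a later intron, had 1.43 ± 0.38 in Z18fl and 0.25 ± 0.48 in Z18trunc, and it fell by 1.28 ± 0.33 in Z18trunc against Z18fl (edgeR adjusted p = 0.0254). Per kilobase the MER57A-int element remained the more abundant, at 149 CPM per kb in Clover and 77.6 in Z18fl, against 0.723 and 3.05 for L1P2. The ratio of intronic to MER57A-int counts was 0.0926 ± 0.0215 for Clover, 0.692 ± 0.0792 for Z18fl, 0.535 ± 0.0860 for Z18trunc and 0.456 ± 0.0806 for Z18truncZnFmut (0.410 without replicate 3). Within the Z18 constructs its range was 0.408 to 0.783, with no overlap with Clover (0.0679 to 0.107). The ratio divides by the element that holds most counts of the subfamily on which the group was chosen. Its separation from Clover is therefore a description, and nothing is read from it.

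**Figure D2:**
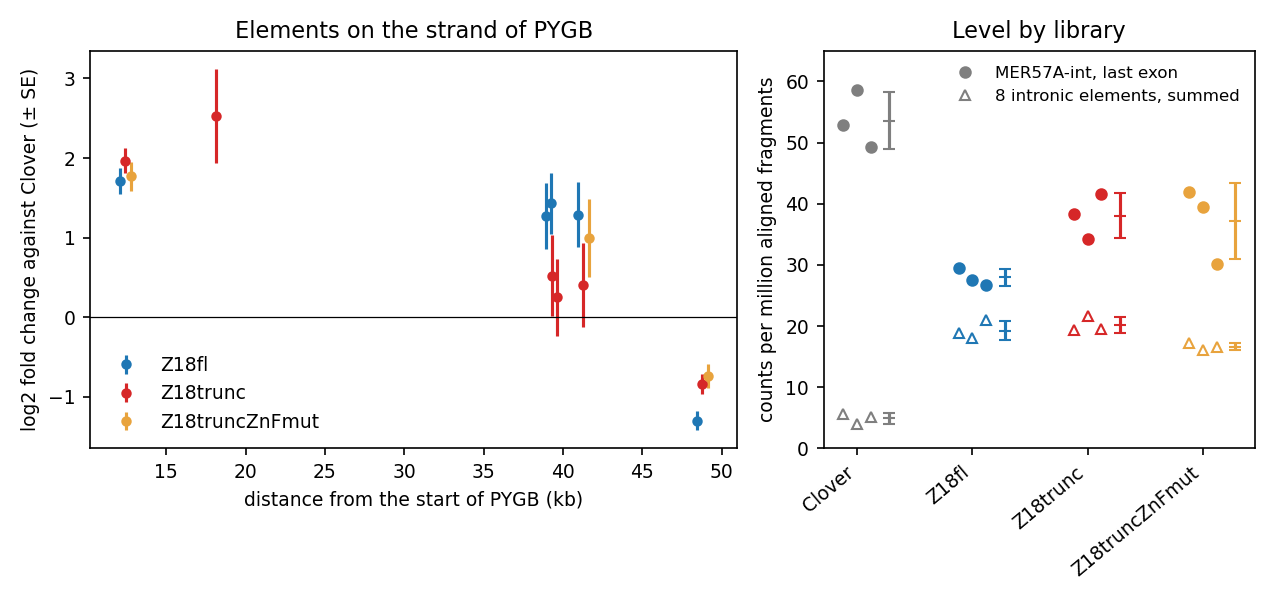
The left panel gives the log2 fold change against Clover (± SE) of each tested element on the strand of PYGB by its distance from the start of the gene, and the right panel the CPM of the MER57A-int element and of the 8 intronic elements in each library, with mean ± SD. The MER57A-int element, farthest from the start, lies below 0 for all 3 constructs, whereas the L1P2 element lies between 1.71 and 1.97.

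The PYGB element also differed from the rest of the group in its letters. It had the lowest A and T content of all 2739 MER57 loci, at 39.4%, where the next lowest had 42.2%, the median was 61.9% and the highest 83.7%. Its longest run of A and T was 5 bases. It had diverged from its consensus by 25.6%, against a median of 15.1%. The bases of the reads themselves were not measured. Weighted by counts, the A and T content of whole MER57 elements in hg38 was 50.5% ± 0.914 for Clover, 54.1% ± 0.343 for Z18fl, 53.3% ± 0.386 for Z18trunc and 54.4% ± 3.39 for Z18truncZnFmut, which had 52.5% without its replicate 3. Without the PYGB element it was 59.5% ± 0.169, 59.7% ± 0.213, 60.1% ± 0.406 and 60.4% ± 0.877 in the same order, and 59.9% for the last without replicate 3.

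The second source had the order of parts of a broken provirus. On chrUn_KI270751v1 (55352 to 69970, plus strand) and, reversed, on chrUn_GL000214v1 (34105 to 48861, minus strand), a MER57A1 LTR was followed by pieces of MER57-int and, 14220 bases on, by a second MER57A1. Between them lay 2 MER52A pieces, AluSp, AluSz and 2 AluY elements (SINEs), and an L1PA3 LINE-1 element of 6137 bases. Of the 11 pairs of MER57 elements, 10 had identical letters on both contigs, so the division of reads between the copies rests on the estimation step of the counting program alone. The copies were therefore summed. Summing lowered the spread within groups: averaged over the 4 groups, the coefficient of variation of CPM had a median of 31.6% for the sums, against 45.0% and 62.0% for the separate copies. It was lower for the sum than for either copy in all 11 pairs. The first MER57A1 and the 658-base MER57-int piece each had 22 further copies in hg38 at 90% identity or more, the closest at 97.1% and 97.6%, so reads may also have come from those.

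MER57 counts on this stretch were high before the LINE-1 element and low after it. The first MER57A1 had 514, 371 and 482 counts for Clover, 628, 572 and 769 for Z18fl, 591, 658 and 613 for Z18trunc, and 750, 487 and 646 for Z18truncZnFmut. Per kilobase it stood at 55.9 CPM for Clover, 57.4 for Z18fl, 54.6 for Z18trunc and 56.4 for Z18truncZnFmut. The second MER57A1 stood at 2.50 CPM per kb for Clover, 3.55 for Z18fl, 3.25 for Z18trunc and 4.64 for Z18truncZnFmut. In every library the first exceeded the second, by 9.86-fold to 25.1-fold per kb. The 4 MER57 elements before L1PA3 together had 26.5 CPM per kb ± 3.28 for Clover, 27.2 ± 2.85 for Z18fl, 27.2 ± 0.560 for Z18trunc and 27.7 ± 4.75 for Z18truncZnFmut, so the groups overlapped. The 7 elements after it had 1.47 ± 0.197, 1.89 ± 0.203, 2.34 ± 0.559 and 2.46 ± 0.387 in the same order. There every library of the Z18 constructs except Z18fl replicate 1 (1.66) lay above the highest Clover library (1.67). Element counts as a whole also took up more of the aligned fragments in the Z18 constructs, so nothing is read from that order. Without replicate 3 the Z18truncZnFmut means per kb were 56.6 for the first MER57A1, 4.63 for the second, 27.2 for the 4 elements before L1PA3 and 2.40 for the 7 after it.

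L1PA3 itself had the largest counts of the stretch and moved apart from the MER57 pieces before it. Only 0.0968% of its counts were unique, so the rest were shared out by the estimation step of the counting program. L1PA3 stood at 47.9 CPM per kb for Clover, 37.1 for Z18fl, 54.7 for Z18trunc and 67.3 for Z18truncZnFmut (66.0 without replicate 3). The MER52A pieces and AluSp, which lie before L1PA3, were also lower in Z18fl than in Clover. They had 110 against 128, 55.8 against 70.5 and 39.6 against 58.9 CPM per kb. The ratio of counts on the 4 preceding MER57 elements to those on L1PA3 was 0.132 ± 0.00483 for Clover, 0.178 ± 0.0145 for Z18fl, 0.121 ± 0.0192 for Z18trunc and 0.0987 ± 0.00199 for Z18truncZnFmut (0.0991 without replicate 3). The lowest Z18fl ratio (0.162) was above the highest ratio of any other library (0.143), and the highest Z18truncZnFmut ratio (0.101) was below all others. Sense reads made up 97.0% of MER57 counts on the contigs, against 60.8% for all elements.

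**Figure D3:**
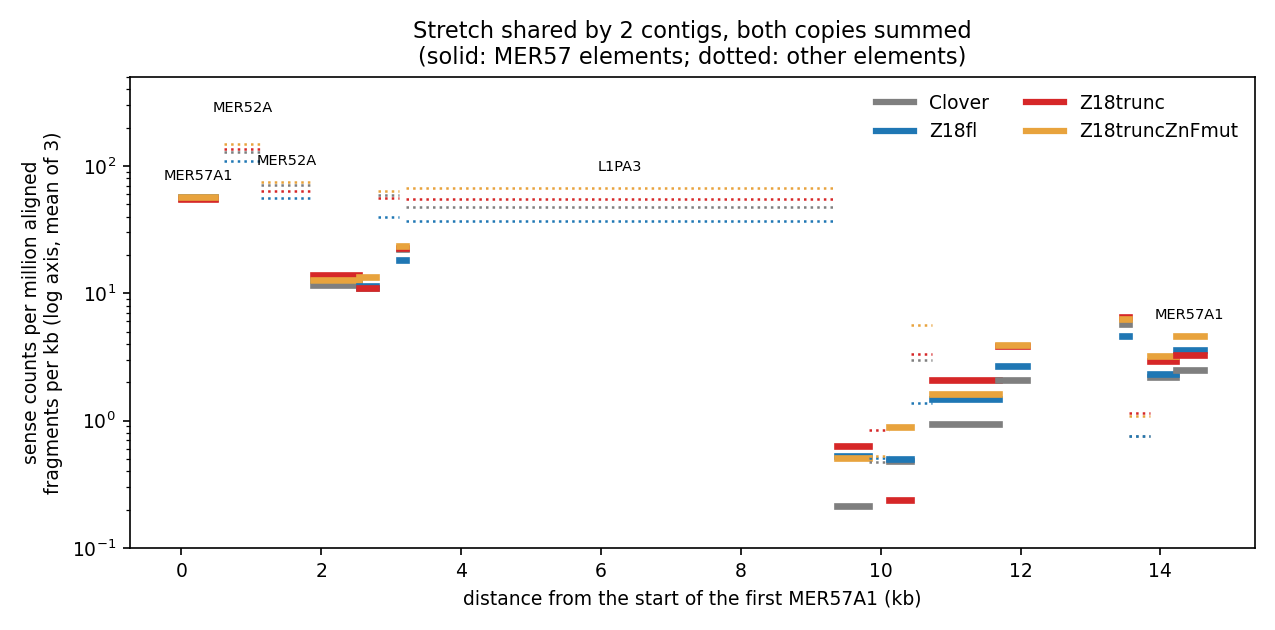
Horizontal lines give the mean sense CPM per kilobase (log axis, 3 libraries a group, copies on both contigs summed) of each element along the stretch, by distance from the start of the first MER57A1. MER57 elements (solid) stand between 11.0 and 57.4 before L1PA3 and between 0.212 and 6.45 after it.

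The last source, the loci outside PYGB and this stretch, was sparse. It summed to 22.4 CPM ± 4.22 for Clover, 27.8 ± 2.25 for Z18fl, 29.9 ± 7.88 for Z18trunc and 62.0 ± 63.6 for Z18truncZnFmut, where replicates 1 and 2 had 24.9 and 25.5 and replicate 3 had 135. In each library the loci with counts had between 1.66 and 2.53 counts on average. Loci with 5 or more counts numbered 11 to 17 for Clover, 24 to 26 for Z18fl, 21 to 25 for Z18trunc, and 25, 15 and 72 for Z18truncZnFmut. That cut is on raw counts, and Clover had fewer aligned fragments (at most 17673644 against at least 21285347), so the groups cannot be compared by it. Over all MER57 elements outside PYGB and this stretch with reads on either strand, antisense reads outnumbered sense reads. Of their counts 37.3% were sense, against 99.2% at the PYGB element. They include elements with antisense reads only, and the sense share of the loci with sense counts alone was not computed.

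Most of the loci of this last source lay outside gene exons. In all, 1339 were between genes, 663 opposite a gene, 566 in introns on the strand of the gene, 62 in exons and 86 on contigs without annotation. Intronic loci summed to 8.77, 7.26 and 6.92 CPM for Clover, 10.8, 12.2 and 11.1 for Z18fl, 10.3, 9.61 and 13.3 for Z18trunc, and 9.97, 9.53 and 29.4 for Z18truncZnFmut. All 9 libraries of the Z18 constructs were above the highest Clover library. Element counts as a whole also took up more of the aligned fragments in the Z18 constructs, so nothing about MER57 is read from this. Loci between genes had 9.28, 6.45 and 6.35 CPM for Clover, 7.34, 8.28 and 7.87 for Z18fl, 6.49, 7.02 and 14.7 for Z18trunc, and 7.25, 7.72 and 64.9 for Z18truncZnFmut, so there the groups overlapped. No test was run on these sums.

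Of the single loci of this source, a MER57D LTR on chromosome 4 (the MER57D printed above) ranked among the 10 MER57 loci with the highest mean CPM. MER57D had 24, 5 and 13 counts for Clover, 23, 40 and 28 for Z18fl, 26, 32 and 23 for Z18trunc, and 27, 25.6 and 40 for Z18truncZnFmut. Its difference between Z18truncZnFmut and Clover was 0.52 ± 0.43 (edgeR adjusted p = 0.465), and 0.31 ± 0.48 (adjusted p = 0.745) without Z18truncZnFmut replicate 3. The PYGB element and 7 elements on the contigs made up 8 of those 10.

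By subfamily, the internal sequences and MER57A1 held most MER57 counts, through the loci just described. MER57A-int had 37.7% of the counts, 83.3% of them at the PYGB element. MER57A1 had 26.7%, 47.1% of them at 1 of the contig copies, and only 9.01% of its counts were unique. MER57-int had 23.7%, with 24.5% unique. The other LTR types (MER57B1, B2, C1, C2, D, E1, E2, E3 and F) had between 0.0578% and 2.31% each, with 59.3% to 80.7% of their counts unique. No single locus of MER57B1, B2 or F held more than 7.23% of the counts of its subfamily.

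**Figure D4:**
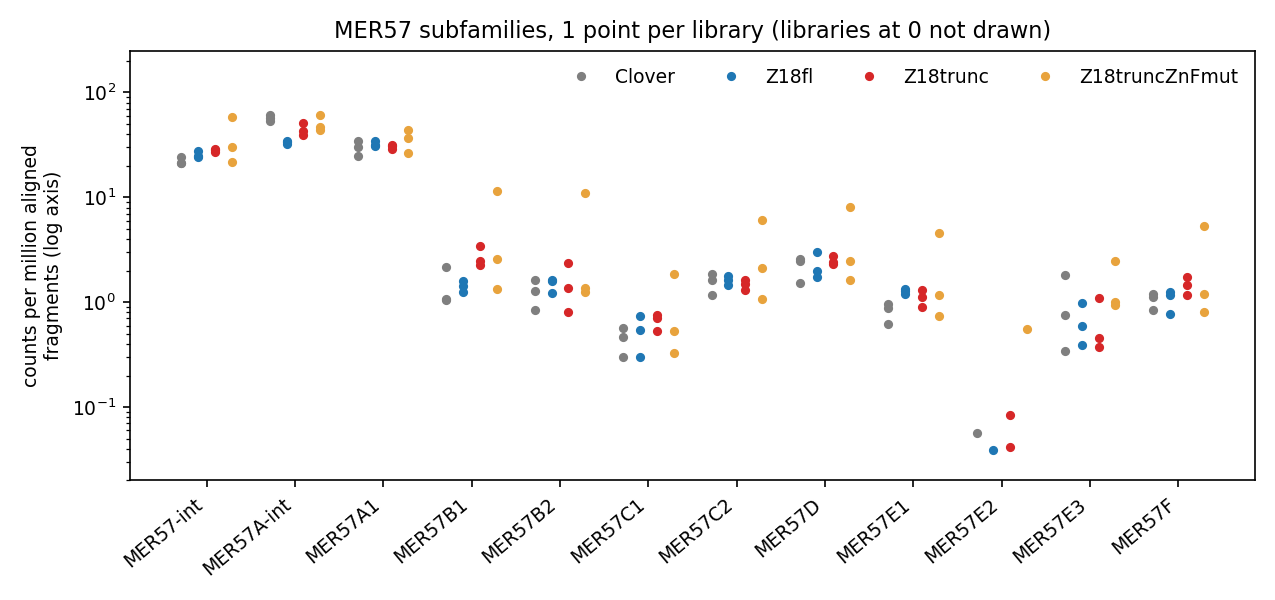
Each point is the CPM of a MER57 subfamily in 1 library (log axis), coloured by construct. In MER57A-int the Clover points lie above those of Z18fl and Z18trunc, and in the LTR types the highest point is that of Z18truncZnFmut replicate 3.

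Few MER57 loci had enough counts for a test. Between 18 and 22 of the 2739 passed the count filter in a comparison, 12 to 15 of them on the contigs. Loci that passed did so by their counts and are no sample of the group. Element counts took up more of the aligned fragments in the Z18 constructs. Fold changes were therefore scaled to the typical element (TMM). With aligned fragments as library sizes, the median log2 fold change of all tested loci moved from 0.01 to 0.37 for Z18fl, from -0.03 to 0.31 for Z18trunc and from -0.05 to 0.15 for Z18truncZnFmut, each against Clover.

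Against Clover, 5 of 18 tested MER57 loci were lower and 0 higher in Z18fl by edgeR at an adjusted p under 0.05. Of all 12098 loci 24.6% were lower and 28.3% higher. In Z18trunc 3 of 20 were lower and 1 higher, where of all loci 13.4% were lower and 22.5% higher. These contrasts led to the choice of the group, and nothing is read from the counts. All but the PYGB element among the called loci were contig elements. In Z18fl these included the GL000214v1 copy of the first MER57A1, at -0.61 ± 0.21, whose identical copy had -0.10 ± 0.15. With copies summed the pair had -0.32 ± 0.12, and the number of called loci was 3 in Z18fl and 2 in Z18trunc. The median over the tested MER57 loci was -0.23 in Z18fl and -0.14 in Z18trunc, but 0.12 and 0.21 with aligned fragments as library sizes. Over the ERV1 family it was -0.24 and -0.26, over the MER4 group -0.20 and -0.32 and over the MER41 group -0.71 and -0.19. In Z18fl, 275 of 865 ERV1 loci were lower and 180 higher.

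In Z18truncZnFmut against Clover, 1 of 18 tested MER57 loci was lower and 1 higher, where of all 10152 loci 4.83% were lower and 12.3% higher. The lower locus was the PYGB element. The higher was a 959-base MER57-int element on a contig (chrUn_GL000214v1:37172-38130), with 10.2, 1.71 and 0 counts in Clover and 26.3, 21.4 and 29.4 in Z18truncZnFmut. Its log2 fold change was 1.996 ± 0.62 (edgeR adjusted p = 0.0257), and 1.90 with an adjusted p of 0.117 without Z18truncZnFmut replicate 3. The call was also lost without Clover replicate 2 or replicate 3, and the same element summed with its near-identical copy had 0.63 ± 0.37 (adjusted p = 0.276). Without that replicate 1 of 17 loci was lower, again the PYGB element, and 1 higher, which was another contig element. The median over the tested MER57 loci was -0.07 with and without the replicate, and 0.13 with aligned fragments as library sizes.

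Between the Z18 constructs no MER57 locus was called. In Z18trunc against Z18fl 0 of 22 tested loci passed by edgeR and 0 by DESeq2. At an unadjusted p under 0.05 there were 7 by edgeR and 1 by DESeq2. Of all 19413 loci 2.62% were higher and 3.13% lower. In Z18truncZnFmut against Z18trunc 0 of 21 passed by edgeR and 0 by DESeq2, where 0.368% of all 16833 loci were higher and 0.351% lower by edgeR. At an unadjusted p under 0.05 there were 4 by edgeR and 2 by DESeq2. The medians over the tested MER57 loci were 0.03 and 0.16, and 0.10 and 0.0027 with aligned fragments as library sizes. Without Z18truncZnFmut replicate 3, 0 of 27 tested loci were called against Z18trunc, and the median was 0.19.

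Sums over subfamilies brought in the loci too low to be tested alone, and 11 of the 12 subfamilies were tested. MER57E2, with 18.5 counts over all libraries, was not. Against Clover, 3 were lower in Z18fl and 2 in Z18trunc, and 0 were higher in either, where of all subfamilies 20.1% were lower and 20.1% higher in Z18fl, and 11.0% lower and 15.7% higher in Z18trunc. MER57A-int in these contrasts is what the group was chosen on, so these counts too are a description from which nothing is read. In Z18fl they were MER57A-int (-1.26 ± 0.08), MER57A1 (-0.36 ± 0.09) and MER57-int (-0.26 ± 0.08), and in Z18trunc MER57A-int (-0.86 ± 0.10) and MER57A1 (-0.43 ± 0.10). With aligned fragments as library sizes MER57A-int kept its sign, at -0.79 and -0.38, while MER57A1 stood at 0.11 and 0.03 and MER57-int at 0.21 and 0.34. In all, that scaling turned the sign of 8 of the 11 subfamilies in Z18fl and of 6 in Z18trunc. Once the PYGB element and the contigs were fitted as features of their own, the rest of MER57A-int had -0.02 ± 0.17 in Z18fl and 0.09 ± 0.22 in Z18trunc. The rest of MER57A1 had 0.12 ± 0.20 and -0.02 ± 0.23, and the rest of MER57-int 0.01 ± 0.14 and -0.09 ± 0.17.

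In Z18truncZnFmut against Clover 0 of 11 MER57 subfamilies were called by edgeR, with 1 at an unadjusted p under 0.05 and 1 called by DESeq2, where of all subfamilies 1.3% were higher and 0.0% lower. MER57A-int had -0.97 ± 0.26 (edgeR adjusted p = 0.115). Without Z18truncZnFmut replicate 3 it had -0.68, with an adjusted p of 2.83e-09. The group was chosen on MER57A-int against these same Clover libraries, so these p-values are not independent evidence. With aligned fragments as library sizes MER57A-int had -0.18. In Z18truncZnFmut against Z18trunc 0 of 11 were called by edgeR and 0 by DESeq2, with 0 at an unadjusted p under 0.05 by edgeR, and of all subfamilies 0.0% were higher and 0.0% lower. Without Z18truncZnFmut replicate 3 the number called there was also 0.

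In Z18trunc against Z18fl 2 of 11 MER57 subfamilies were higher and 0 lower, where of all subfamilies 1.48% were higher and 2.22% lower. MER57A-int in both constructs entered the choice of the group. Its call here is therefore a description, and nothing is read from the count. MER57A-int was higher by 0.35 ± 0.08 (edgeR adjusted p = 0.0400), and the PYGB element fitted alone on this scale by 0.39 ± 0.09 (adjusted p = 0.0272). The rest of the subfamily had 0.10 ± 0.20 (adjusted p = 0.831). MER57B1, an LTR type spread over 278 loci, had 36, 18 and 19 counts for Clover, 29, 33 and 41 for Z18fl, 59, 55 and 82.2 for Z18trunc, and 32, 55 and 277 for Z18truncZnFmut. Its Z18trunc libraries were above those of Z18fl, by 0.87 ± 0.20 (edgeR adjusted p = 0.0364). Both calls were lost when any Z18fl library or Z18trunc replicate 1 was left out, with aligned fragments as library sizes, with all 12 libraries in 1 fit and with the replicate block. The adjusted p over the libraries left out in turn ran from 0.0114 to 0.172 for MER57A-int and from 0.0262 to 0.193 for MER57B1. Over all settings it reached 0.760 and 0.546.

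**Figure D5:**
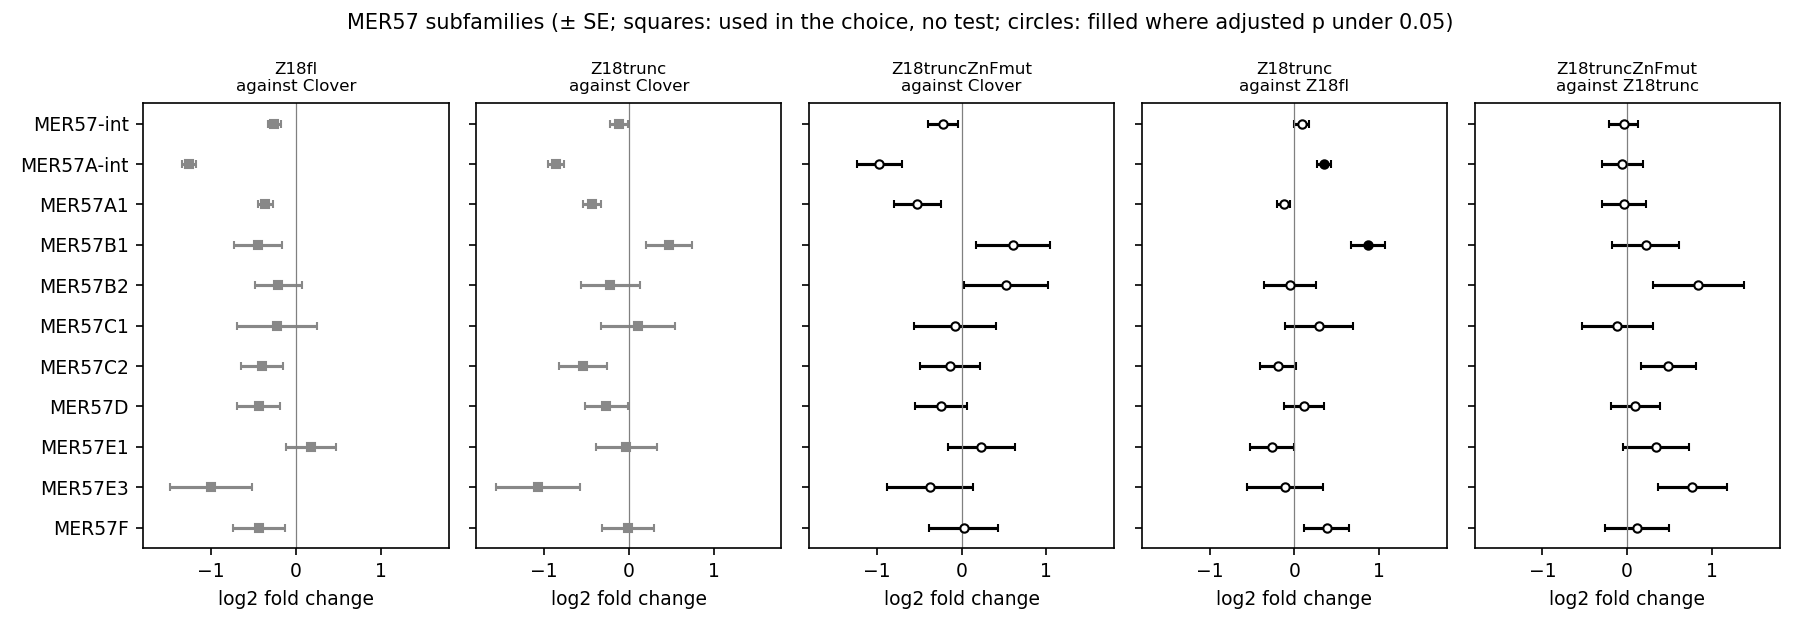
Points give the log2 fold change (± SE) of each tested MER57 subfamily in the 5 comparisons. Grey squares mark the comparisons that led to the choice of the group, with no test shown, and filled circles an adjusted p under 0.05, which MER57A-int and MER57B1 reached in Z18trunc against Z18fl. The values of MER57A-int in both of these constructs entered the choice, so its filled circle is a description.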

How the data were processed

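Per the labels and the methods of the study, the authors trimmed reads with cutadapt 4.6 and counted them with SQuIRE against hg38 and RepeatMasker. The deposited tables give, per element and strand, unique counts and expected counts, to which reads that map to several places contribute an estimated share. The number of aligned fragments, also a count, is repeated in each table. The deposited score, in percent, is the share of reads aligned to an element that was assigned to it, and no result printed here uses it. Deposited FPKM were not used. Rows without reads are not listed.

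Members, lists and tests were chosen with earlier results of these data known. Expected counts were rounded, elements filtered by filterByExpr, and each pair of groups fitted with edgeR 4.0.16 (quasi-likelihood test, TMM, R 4.3.3), with Benjamini-Hochberg adjustment over all tested features and a threshold of 0.05. DESeq2 1.42.0 was an alternative. Groups followed the sample titles. Named were subfamilies with 50 or more counts, the 10 loci of highest mean CPM, and up to 3 called loci each way with 10 or more mean counts. The loci and subfamilies of the MER4, MER41 and ERV1 sets served as description only. Context came from GENCODE release 44 (bedtools 2.31.1; exonic where 50% or more lay in same-strand exons), and copies from blastn 2.17.0. Exonic reads of neighbouring genes were not analysed here. The fit was tested on simulated data with 200 changed loci. Depth limited the test to 18 to 22 MER57 loci a comparison, and counting error alone is larger at the other loci. A further locus named by this rule is not reported here.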

Additional observations from a re-analysis of the deposited data

Results flagged for a closer look

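Fitted directly against each other, without Clover, Z18trunc and Z18fl differed for 2 subfamilies, but neither call held under every setting. The log2 fold change of Z18trunc against Z18fl was 0.347 for MER57A-int (edgeR adjusted p = 0.0400) and 0.874 for MER57B1 (edgeR adjusted p = 0.0364). All 3 Z18trunc libraries lay above all 3 Z18fl libraries in CPM in both cases. Neither subfamily was called with aligned fragments as library sizes, with all 12 libraries in 1 fit, with the replicate block, or when any Z18fl library or Z18trunc replicate 1 was left out, and the adjusted p reached 0.760 for MER57A-int and 0.546 for MER57B1. Without the PYGB element, MER57A-int had a difference of 0.10 ± 0.20 (edgeR adjusted p = 0.831). MER57A-int in both constructs entered the choice of the group, so its call is not independent of that choice.

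Reads antisense to MER57 elements were outside the comparisons above. They gave 38.8 CPM ± 4.21 (SD, n = 3) for Clover, 59.7 ± 1.25 for Z18fl, 61.6 ± 10.7 for Z18trunc and 85.9 ± 58.5 for Z18truncZnFmut (52.3 without replicate 3). Every library of the Z18 constructs (46.2 CPM or more) was above the highest Clover library (41.5), and Z18truncZnFmut replicate 3 reached 153. Counts of all elements on either strand also took up more of the aligned fragments in the Z18 constructs, so nothing about MER57 is read from this. The reads antisense to MER57 were spread over 3077 loci, none of which held more than 1.22% of them. Sense reads were 75.5% ± 1.57 of MER57 counts for Clover, 63.0% ± 0.225 for Z18fl and 65.2% ± 2.97 for Z18trunc. For Z18truncZnFmut they were 68.3% without replicate 3, which had 58.4%. The PYGB element, 99.2% sense, holds most counts of the subfamily on which the group was chosen, so nothing is read from this share. Outside PYGB and the contig stretch the sense share was 37.2% ± 3.84 for Clover, 32.6% ± 1.75 for Z18fl and 33.2% ± 3.02 for Z18trunc, and these groups overlapped.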

How the results depend on the processing

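Numbers of called MER57 loci and subfamilies followed the setting. The PYGB element kept its sign under all 14 settings in each comparison against Clover and in Z18trunc against Z18fl, but in Z18truncZnFmut against Z18trunc it turned under 2 of the 14, to -0.03 with aligned fragments as library sizes and -0.08 with no filter. Calls of Z18fl and Z18trunc against Clover, the contrasts that led to the choice of the group, are listed as a description. Against Clover, the 5 loci called in Z18fl became 1 with DESeq2 or unique reads, 3 with aligned fragments as library sizes or reads on either strand, and 8 with all 12 libraries in 1 fit. In Z18trunc the 4 became 2 with no filter and 1 with unique reads, and in Z18truncZnFmut the 2 became 1 with unique reads. Summing the contig copies, a setting chosen after seeing the data, gave 3, 2 and 1. In Z18trunc against Z18fl the 0 became 1 with aligned fragments, no filter or unique reads. Of subfamilies, the 3 in Z18fl became 1 with aligned fragments, unique reads or all 12 libraries, the 2 in Z18trunc became 1 with unique reads or all 12 libraries, and the 0 in Z18truncZnFmut became 1 with DESeq2 or all 12 libraries. In Z18trunc against Z18fl the 2 became 1 with DESeq2 (MER57B1 had no adjusted p), unique reads or either strand, and 0 with aligned fragments or all 12 libraries. With 1 library left out at a time, called loci ran from 2 to 7 in Z18fl, 2 to 5 in Z18trunc and 1 to 3 in Z18truncZnFmut against Clover, 0 to 2 in Z18trunc against Z18fl and 0 to 0 in Z18truncZnFmut against Z18trunc. Called subfamilies ran from 2 to 4, 2 to 3, 0 to 1, 0 to 2 and 0 to 0 in the same order. Where a value was called in the main setting or in the alternative, the sign turned for MER57-int in Z18fl (0.21 with aligned fragments, 0.25 with unique reads) and Z18trunc (0.34 with aligned fragments), for MER57A1 in Z18fl (0.11 and 0.28) and Z18trunc (0.028 and 0.13), and for MER57E3 with either strand (0.38 in Z18fl, 0.47 in Z18trunc). Over 1422 comparisons of a named locus or subfamily with an alternative, it turned in a further 193 with a call in neither. With aligned fragments it turned, called or not, for 8 of 11 subfamilies in Z18fl, 6 in Z18trunc and 6 in Z18truncZnFmut against Clover, 1 in Z18trunc against Z18fl and 4 in Z18truncZnFmut against Z18trunc. The cause was not tested.

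Replicate numbers did not pair the libraries: deviations of same-numbered libraries correlated at -0.123 to 0.0421. With the replicate number as a block, Z18trunc against Z18fl had 1 called locus and 0 called subfamilies, and no other count moved by over 1.5 times.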
